A study of Pan troglodytes and Macaca mulatta with 12 samples.

Results

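Well-expressed genes whose level differed most between cell lines of the same species were described in chimpanzee and rhesus macaque lymphoblastoid cell lines. Exon counts were summed per gene and divided by the library total to give CPM (counts scaled to 1000000 counted reads per library). A gene was taken when its mean was at least 50 CPM in each species and the SD of its log2(CPM + 0.5) over the 6 lines exceeded 1 in at least 1 species. Of 16903 genes in the files, 3637 were well expressed by this definition, and 223 of these were variable. In chimpanzee 166 genes were variable and in rhesus macaque 99, of which 42 were variable in both species, 124 in chimpanzee only and 57 in rhesus macaque only. The SD and the level chose these genes, so both are given as a description without a test.

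Lymphoblastoid cell lines are B lymphocytes that were transformed to grow indefinitely in culture, usually with Epstein-Barr virus or a related virus. They keep much of the B cell programme and are widely used to compare gene expression between individuals. Each line descends from the cells of one individual, and a line can come to be dominated by a few founding clones as it is passaged. Immunoglobulin rearrangement, activation state and growth state are known sources of difference between such lines, and the labels give none of them for these cultures.

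The study sequenced RNA from 6 chimpanzee lines (3 from females and 3 from males) and 6 rhesus macaque lines (2 from females and 4 from males). All were grown untreated in the same serum-containing medium, and human lines named in the series design were not analysed here. Each line gave 1 library, so differences between individuals, between cultures of a line and between library preparations cannot be told apart. The labels give neither the transforming virus, the passage number nor the day of preparation, and the files name genes only by identifiers. Since 0 of these 16903 identifiers matched the name tables at hand, genes are described by position in the coordinates that both species share in the files. The genome build of those coordinates was not given in the sources used here. The labelled cell type could not be checked against B cell markers for the same reason.

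Library totals ran from 1434241 counts in chimpanzee line 1 to 4751954 counts in chimpanzee line 6. Chimpanzee lines 1 and 5 stood apart from the other lines of their species, at a Euclidean distance of 42.8 and 36.0 from the species mean over all well-expressed genes on the log2 scale, against 22.2 to 25.9 for the other 4. In rhesus macaque the distances ran from 20.2 for line 2 to 32.9 for line 6. The variable genes held between 4.91% and 6.90% of the counts of a library. At the mean level of each gene, counting error was small beside the spread. There Poisson sampling alone gave a median SD of 0.0862 over the 166 genes in chimpanzee and 0.0866 over the 99 genes in rhesus macaque. These values do not cover lines with few counts, down to 0 or 1 for some genes, where the counting error on the log2 scale is larger.

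In chimpanzee, 4.56% of the well-expressed genes had an SD above 1, and in rhesus macaque 2.72%. The median SD over all well-expressed genes was 0.40 in chimpanzee and 0.37 in rhesus macaque. Over the variable genes it was 1.27 (166 genes) and 1.25 (99 genes). In each species 21 genes had an SD above 2. The highest line exceeded the lowest line by a median of 10.5-fold in chimpanzee and 10.7-fold in rhesus macaque, with the smallest ratios at 4.82 and 4.67. A line under 5 CPM beside another at 50 CPM or more was found for 16 genes in chimpanzee and 13 in rhesus macaque. In bulk RNA a line with fewer cells that express a gene and a line with less of its RNA in every cell cannot be told apart.

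Just inside the SD threshold in chimpanzee was a gene on chromosome 18 at 46.1 Mb, whose lines held 59.3 to 403 CPM (SD 1.0009). Just outside was a gene on chromosome 19 at 55.6 Mb, whose lines held 17.4 to 99.1 CPM (SD 0.99965). In rhesus macaque the nearest inside was a gene on chromosome 11 at 17.1 Mb (18.8 to 112 CPM, SD 1.002), and the nearest outside a gene on chromosome 6 at 41.6 Mb (258 to 1661 CPM, SD 0.9988). The lowest mean level among the variable genes was 50.4 CPM, and the nearest variable gene below the level threshold had a lower species mean of 49.2 CPM.

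**Figure D1:**
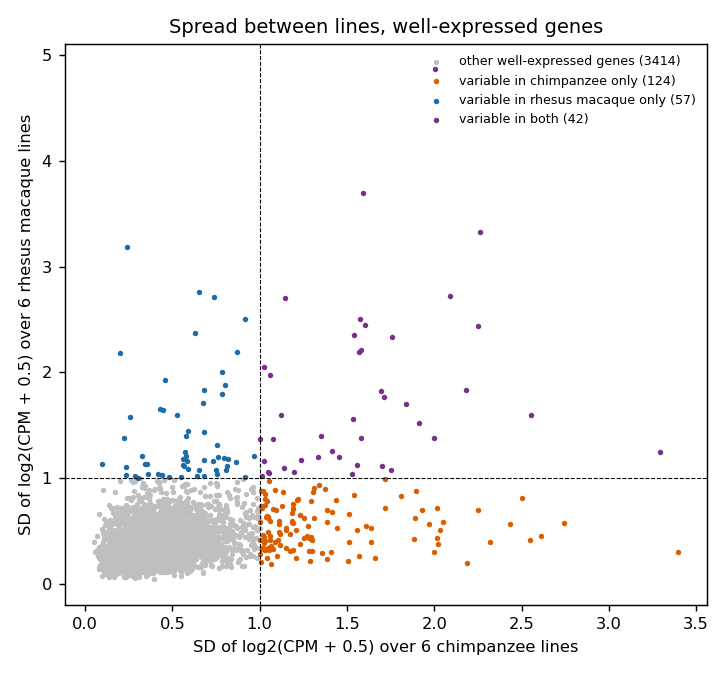
Each point is 1 of 3637 well-expressed genes, with the SD of log2(CPM + 0.5) over 6 chimpanzee lines on the x axis and over 6 rhesus macaque lines on the y axis, and dashed lines at the threshold of 1. The 42 genes beyond both lines reach an SD of 3.29 in chimpanzee and 4.87 in rhesus macaque, while most genes lie below 1 in both.

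Genes chosen by their spread in one species were often variable in the other, whose libraries that choice did not use. Of the 166 genes variable in chimpanzee, 42 (25.3%) also had an SD above 1 in rhesus macaque, against 2.72% of all well-expressed genes. Of the 99 genes variable in rhesus macaque, the same 42 (42.4%) were also variable in chimpanzee, against 4.56%. The shares were similar at different levels. For genes whose lower species mean was 50 to 100, 100 to 200 and 200 or more CPM, 24.1%, 26.9% and 25.9% of those variable in chimpanzee were also variable in rhesus macaque. For those variable in rhesus macaque the corresponding shares were 38.2%, 53.8% and 38.9%. Of the 124 genes variable in chimpanzee only, which were below the threshold in rhesus macaque, 94 (75.8%) had a rhesus macaque SD above the median of well-expressed genes. Of the 57 variable in rhesus macaque only, 44 (77.2%) had a chimpanzee SD above its median. Many of these calls did not hold when 1 line was left out. Leaving out the most extreme line lowers most SDs, so a gene just above 1 can fall below it although no single line lies apart. With each line left out in turn, which was added after the data were seen, 49 of the 166 genes (29.5%) kept an SD above 1 in chimpanzee, 46 of the 99 (46.5%) in rhesus macaque and 15 of the 42 in both species. Leaving out chimpanzee line 5 brought 60 genes to an SD of 1 or below, and leaving out line 1 brought 55. In rhesus macaque the counts were largest for line 1 (24 genes) and line 6 (17 genes). Without chimpanzee lines 1 and 5, an alternative chosen after the data were seen, 76 genes were variable in chimpanzee and 22 in both species.

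The gene with the largest spread in both species, counted on 5 exons, lay on chromosome 4 from 1150725 to 1155862. Its SD was 2.261 in chimpanzee and 3.33 in rhesus macaque. In chimpanzee lines 1 to 6 its level was 18.8, 102, 242, 136, 3.62 and 155 CPM. In rhesus macaque lines 1 to 6 it was 458, 19.5, 11.8, 1568, 13.6 and 4.35 CPM. Chimpanzee lines 1 and 5 were low and the other 4 high, while in rhesus macaque only lines 1 and 4 were high. The levels of the 2 species overlapped. Without chimpanzee line 5 its chimpanzee SD was 1.40.

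It was followed by a gene counted on 3 exons of chromosome 1 (151782713 to 151789236), whose SDs were 2.25 and 2.44. Its chimpanzee levels were 13.2, 56.4, 245, 354, 8.44 and 195 CPM in lines 1 to 6, and its rhesus macaque levels were 1636, 141, 36.7, 316, 27.7 and 19.999 CPM. The low chimpanzee lines were again 1 and 5, and rhesus macaque line 1 was above every other line of either species. A second variable gene of the same stretch, from 151773699 to 151775341, lay 7.37 kb away with 1 counted gene between them. It had 76.7, 76.3, 430.5, 749, 23.3 and 215 CPM in chimpanzee and 1159, 114, 51.4, 87.4, 96.0 and 44.8 CPM in rhesus macaque, where its SD was 1.70 and, without line 1, 0.59. The levels of these 2 genes rose and fell together, with r = 0.94 over the 6 chimpanzee lines and 0.87 over the 6 rhesus macaque lines.

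The widest spread of any well-expressed gene was found on chromosome 16 from 76408319 to 76571504 (8 counted exons). Its rhesus macaque levels were 427, 0.475, 2.83 and 738 CPM in lines 1 to 4 and 0 in lines 5 and 6, where 3 counts would be 0.798 and 0.652 CPM. Its chimpanzee levels were 436, 43.9, 134, 267, 9.65 and 41.0 CPM. Rhesus macaque line 1 held the gene close to the level of the highest chimpanzee line and line 4 above it, and the other 4 at 2.83 CPM or below. The SD in rhesus macaque was 4.87 and depended on the pseudocount, being 4.03 with log2(CPM + 2). In chimpanzee it was 2.00.

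The most abundant of the genes with a large spread in both species lay on chromosome 10 from 17311250 to 17319591 (7 counted exons). It had 2229, 1181, 4161, 3847, 78.0 and 3208 CPM in chimpanzee lines 1 to 6 and 4912, 572, 618, 2644, 139.9 and 545 CPM in rhesus macaque lines 1 to 6. In both species line 5 was the lowest, a coincidence of numbers only, since the numbers do not pair lines. Without line 5 its chimpanzee SD fell from 2.18 to 0.74. Lines 1 and 4 were the high lines in rhesus macaque, as for the chromosome 4 and chromosome 16 genes.

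The opposite order of lines was seen for a gene on chromosome 5 from 138751094 to 138753504 (4 counted exons, SDs of 1.76 and 2.34). Its level was 16.0, 329, 143, 98.7, 445 and 320.1 CPM in chimpanzee and 5.55, 16.6, 88.6, 4.47, 165 and 167 CPM in rhesus macaque. Rhesus macaque lines 1 and 4 were its lowest, and chimpanzee line 5 its highest. Its chimpanzee SD was 0.91 without line 1, the lowest. On chromosome 20, a gene from 55660499 to 55719037 (3 counted exons, SDs of 1.71 and 1.77) had 4.18, 57.2, 76.5, 68.0, 15.7 and 99.5 CPM in chimpanzee, with lines 1 and 5 low (SD 1.03 without line 1). In rhesus macaque it had 209.8, 128, 163, 105, 10.6 and 18.7 CPM, with lines 5 and 6 low.

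A gene on chromosome 1 from 184907592 to 184915193 (9 counted exons) had the largest chimpanzee SD of the 42, at 3.29, with 524, 13.7, 48.1, 69.2, 0.402 and 2.74 CPM in lines 1 to 6. Its rhesus macaque levels were 217, 307, 99.9, 252, 756 and 1065 CPM, with an SD of 1.25. Chimpanzee line 1 was high and line 5 was at 1 count, while in rhesus macaque lines 5 and 6 were high. On chromosome 4 from 71740131 to 71751114 (4 counted exons) a gene had 222, 2800.5, 199.9, 156, 435 and 955 CPM in chimpanzee, with line 2 high (SD 1.60, and 1.06 without that line). In rhesus macaque it had 16.6, 190.2, 335, 47.4, 999 and 1297 CPM, with lines 1 and 4 low as for the chromosome 5 gene.

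On chromosome 16 from 31274010 to 31299829 (17 counted exons) a gene had 47.4, 92.9, 69.1, 215, 6.83 and 131 CPM in chimpanzee, where line 5 was low (SD 1.70, and 0.84 without that line). Its rhesus macaque levels were 143, 102, 8.48, 42.4, 20.2 and 6.09 CPM, with lines 3 and 6 low. On chromosome 14 from 93470266 to 93493520 (7 counted exons) the low line was line 5 in chimpanzee (17.3 CPM, against 121 to 266 CPM in the other 5) and line 1 in rhesus macaque (13.9 CPM, against 72.5 to 177 CPM). Without those lines its SD fell from 1.35 to 0.48 in chimpanzee and from 1.40 to 0.53 in rhesus macaque. Over the 42 genes the lowest chimpanzee line was line 5 for 19 (45.2%, against 18.04% of well-expressed genes) and line 1 for 9 (21.4%, against 37.3%). The lowest rhesus macaque line was line 6 for 15 (35.7%, against 20.1%), line 5 for 10 (23.8%, against 9.84%) and line 1 for 8 (19.05%, against 22.3%). The spread over the same lines chose the genes, so these shares are a description only.

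**Figure D2:**
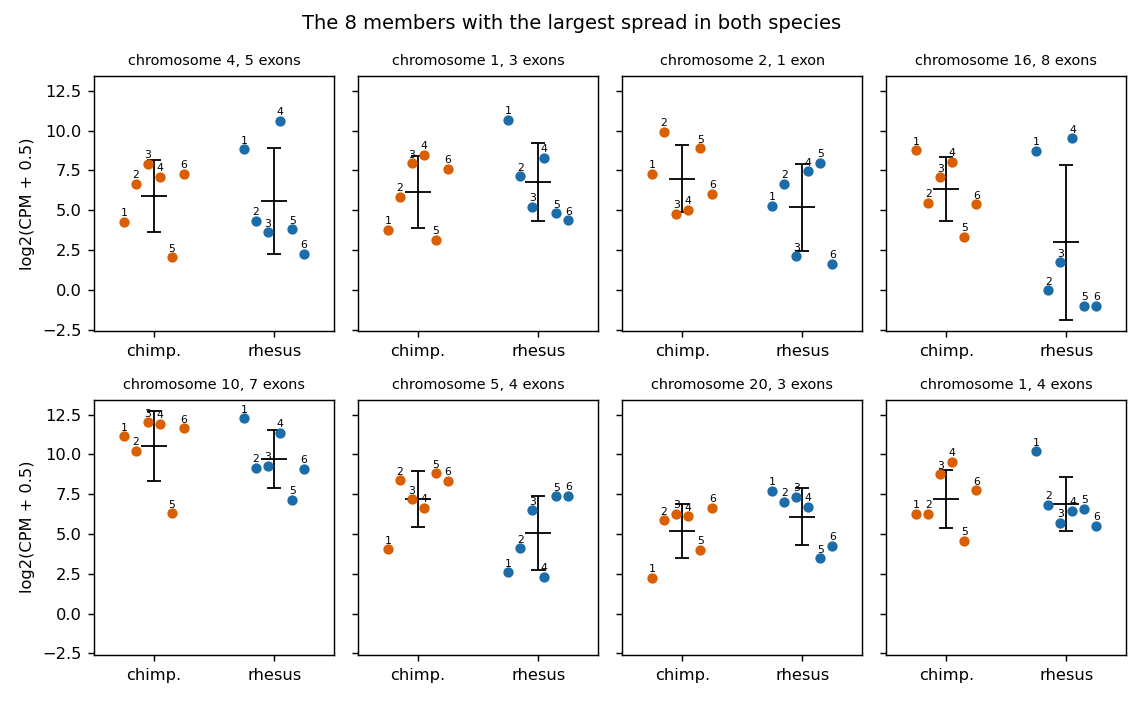
Each panel shows 1 of the 8 genes with the largest spread in both species, with log2(CPM + 0.5) on the y axis, 1 numbered point per line, and the mean ± SD of the 6 lines of each species. The chromosome 16 gene spans the widest range, with 2 rhesus macaque lines at 0 counts, and the levels of the species overlap in all 8 panels.

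Of these 42 genes, 3 were counted on a single very short exon. They lay on chromosome 2 from 88942148 to 88942190 (43 bases), on chromosome 2 from 88942509 to 88942550 (42 bases) and on chromosome 14 from 105401470 to 105401517 (48 bases). The first ran from 27.2 to 969.6 CPM over the chimpanzee lines and from 2.61 to 251 CPM over the rhesus macaque lines. The second was at 0 counts in rhesus macaque lines 1 and 6 and reached 255 CPM in line 3. Its chimpanzee SD was 1.59, and 0.67 without line 4. Although only 0.319 kb apart, the chromosome 2 pair did not rank the lines alike (r = 0.29 in chimpanzee and 0.16 in rhesus macaque). All 4 well-expressed genes with fewer than 60 counted bases were variable. More generally, 26 of the 223 variable genes (11.7%) had 1 counted exon, against 131 of the 3637 well-expressed genes (3.60%), while the median counted length was similar (2647 and 2449 bases).

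For genes with several exons the levels of alternate exons were compared. The counted exons were divided into a pair of sets of alternate exons, each set with a mean of at least 10 CPM, which left 136 genes variable in chimpanzee and 65 variable in rhesus macaque. The sets of a gene correlated over the 6 lines with a median r of 0.98 in each species, and r was at least 0.8 for 134 of the 136 and 64 of the 65 genes. Both sets had an SD above 1 for 104 and 55 genes. The sets add up to the total whose SD chose the gene, and no share over all well-expressed genes was computed. These values are therefore a description only. When the exon with the most counts was removed from every gene, 2059 genes remained well expressed, of which 108 (5.25%) were variable, against 6.13% with all exons. Of those 108 genes, 89 were among the original 223.

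Other genes were variable in a single species. The largest spread in chimpanzee belonged to a gene on chromosome 8 from 134118155 to 134156557 (8 counted exons), with 66.9, 71.7, 196, 605, 0.402 and 409 CPM in lines 1 to 6. The level in line 5 was 1 count. In the 6 rhesus macaque lines it ran only from 2179.5 to 3527 CPM, above every chimpanzee line, and its SD was 0.30 against 3.40 in chimpanzee. Without chimpanzee line 5 the chimpanzee SD was 1.43.

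Chromosome 6 carried a further gene, from 90131436 to 90154028 (6 counted exons), with 0.697, 181, 77.6, 16.5, 166 and 67.8 CPM in the chimpanzee lines and 77.1 to 215 CPM in the rhesus macaque lines. Line 1, again at 1 count, was far below the others, and the levels of the species overlapped. The chimpanzee SD was 2.74, and 1.37 without line 1. On chromosome 19 from 8493261 to 8548330 (14 counted exons) a gene had 37.7, 83.3, 74.9, 162, 0.804 and 154 CPM in chimpanzee and 93.8 to 238 CPM in rhesus macaque. Its chimpanzee SD of 2.61 rested on line 5 and was 0.86 without it. On chromosome 3 from 192529568 to 192592710 (10 counted exons) a gene had 1152, 111, 678, 396, 8.44 and 450.1 CPM in chimpanzee and 125 to 262 CPM in rhesus macaque. Its chimpanzee SD was 2.55, and 1.25 without line 5.

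Among genes variable in rhesus macaque only, the widest spread was on chromosome 6 from 21701951 to 21706826 (1 counted exon), with 1157, 95.6, 318, 623, 1.86 and 89.6 CPM. The chimpanzee lines held it between 313 and 466 CPM, within the rhesus macaque range, with an SD of 0.24 against 3.18. Without rhesus macaque line 5 the latter was 1.63. On chromosome 1 from 221966877 to 222030168 (19 counted exons) a gene had 416, 18.5, 3.77, 31.0, 1.06 and 23.5 CPM in rhesus macaque, with line 1 high. In chimpanzee it ran from 48.1 to 152 CPM. The gene on chromosome 8 from 22601119 to 22604940 (1 counted exon) had 41.1, 264, 10.8, 18.8, 6.65 and 0.435 CPM in rhesus macaque and 18.8 to 84.6 CPM in chimpanzee.

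An even level in chimpanzee was seen for a gene on chromosome 3 from 16332357 to 16510388 (9 counted exons), with 1026 to 1498 CPM and an SD of 0.20. In rhesus macaque it had 155, 57.5, 137, 199, 13.8 and 4.13 CPM and an SD of 2.19. All chimpanzee lines exceeded all rhesus macaque lines, and within rhesus macaque lines 5 and 6 were low. In all, 57 of the 124 genes variable in chimpanzee only had an SD of at most 0.5 in rhesus macaque, and 19 of the 57 variable in rhesus macaque only had one of at most 0.5 in chimpanzee. That the spread of a gene differed between the species was not tested.

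**Figure D3:**
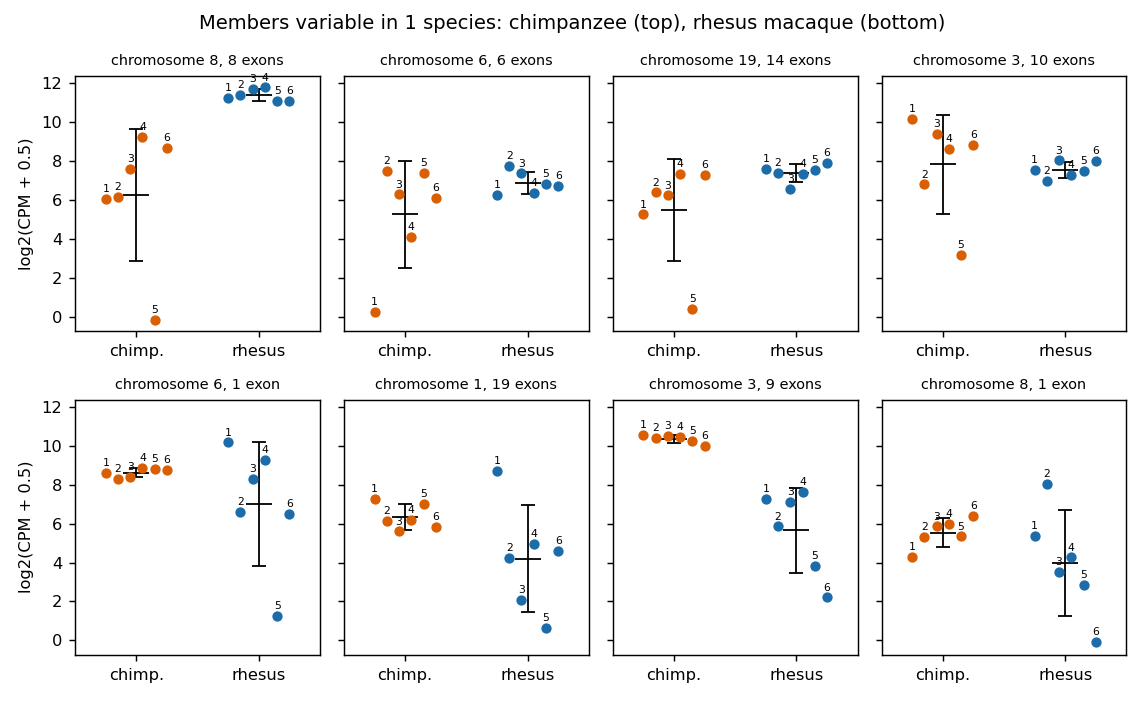
Each panel shows a gene variable in chimpanzee only (top row) or in rhesus macaque only (bottom row), with log2(CPM + 0.5) on the y axis, 1 numbered point per line, and the mean ± SD of the 6 lines. In the top row 1 chimpanzee line (line 5, or line 1 for the chromosome 6 gene) lies far below the others, and in the bottom row the low rhesus macaque line is line 5 or 6.

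The lowest and highest lines are described within each species, since the numbers do not pair lines. In chimpanzee, line 5 was the lowest for 63 of the 166 variable genes (38.0%), against 18.04% of all well-expressed genes. Line 1 was the lowest for 61 (36.7%), close to its 37.3% over all well-expressed genes, and the highest for 39 (23.5%, against 25.7%). A single line lay apart below the other 5 for 22 of the 166 genes (16 in line 5 and 6 in line 1), where its gap to the next line, as a share of the whole range, exceeded Dixon's 95% critical value for 6 samples. This was 13.3% of the variable genes, and over all well-expressed genes the share with such a low line was 6.49%. A single line lay apart above for 0 of the 166 genes, against 2.86%. In rhesus macaque, line 1 was the highest for 31 of the 99 variable genes (31.3%), against 13.3% of well-expressed genes, and line 6 the lowest for 27 (27.3%, against 20.1%) and the highest for 23 (23.2%, against 25.5%). Line 5 was the lowest for 20 (20.2%, against 9.84%) and line 1 for 24 (24.2%, against 22.3%). A single line lay apart below for 6 of the 99 genes, against 2.2% of well-expressed genes, and above for 1, against 1.92%. A line far from the others raises the SD that chose the genes. The shares of lowest, highest and apart lines are therefore a description only. The library of chimpanzee line 1 was the smallest of all. With every library reduced at random to that size the rule gave 227 genes, 215 of them among the 223. The reduction leaves the counts of line 1 itself unchanged, so whether its library size had a part in its extreme levels was not tested.

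Pairs of genes variable in chimpanzee reached a high r more often than pairs of all well-expressed genes. Of the 13695 pairs of the 166 genes, 2168 (15.8%) had r of at least 0.8 over the 6 lines, and 8.13% had r of at most -0.8. Over all pairs of well-expressed genes these shares were 7.13% and 6.42%. In rhesus macaque 523 of the 4851 pairs of the 99 genes (10.8%) reached 0.8 and 7.48% reached -0.8, against 6.47% and 5.79% of all well-expressed pairs. The genes of a pair share their 6 libraries, and r over 6 lines is given as a description without a p-value. The same libraries gave the SD that chose the genes. How far the higher shares follow from that choice was not tested. An r of 0.8 is reached more often over fewer lines, so each share over 5 lines is given beside that of the well-expressed genes over the same lines. With 1 line of a species left out at a time, the variable and well-expressed genes were chosen anew over the other 5 lines. The shares over 5 lines are therefore not those of the original pairs. Without 1 chimpanzee line, 17.8% to 25.1% of the pairs of variable genes so chosen reached 0.8, against 7.47% to 11.4% of well-expressed pairs. The ratio of these shares was 2.22 with all 6 lines, ran from 1.78 to 2.05 without 1 of lines 2 to 6, and was 3.37 without line 1. In rhesus macaque the shares were 11.9% to 17.99%, against 7.41% to 10.2%, and their ratio was 1.67 with all lines and 1.30 to 1.82 with 1 left out.

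Grouping the chimpanzee genes by average linkage, separated at a mean r of 0.8, gave 17 groups of 2 genes or more, which held 155 of the 166 genes. Of these groups, 11 had 5 genes or more and held 141 genes. Other well-expressed genes were not grouped in this way, so the counts are a description only. Single pairs within a group can lie below 0.8, down to r = 0.36 in the largest group. The largest group had 28 genes on 14 chromosomes and followed chimpanzee line 1, whose mean deviation was -2.17 on the log2 scale. The other lines deviated by 1.04, -0.15, -0.49, 1.29 and 0.49 in lines 2 to 6. A gene on chromosome 4 from 38366601 to 38379523, which had the highest mean r to this group, had 8.37, 88.7, 37.3, 29.5, 104 and 47.3 CPM (SD 1.28, and 0.78 without line 1). The chromosome 5 gene at 138.8 Mb described above also belonged to it.

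The next groups, the second and the third in size, had 25 and 19 genes, and both were low in chimpanzee line 5, by a mean of -2.87 and -2.95. They differed mainly in line 1, which stood at 1.23 in the second group and at -0.48 in the third. The second group held the chromosome 16 gene at 76.4 Mb and the chromosome 10 gene at 17.3 Mb. A gene on chromosome 10 from 121475587 to 121578648 had the highest mean r to it, with 208, 51.0, 127, 136, 4.42 and 138 CPM in chimpanzee and 136 to 226 CPM in rhesus macaque. Without line 5 its chimpanzee SD was 0.74. The third group held the gene at 134.1 Mb on chromosome 8, the chromosome 4 gene at 1.151 Mb and the close pair on chromosome 1, and 8 of its 19 genes were also variable in rhesus macaque.

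In rhesus macaque, again without a share for other genes, 18 groups of 2 genes or more held 90 of the 99 genes. Of these, 7 had 5 genes or more and held 61 genes. The largest had 17 genes, 8 of them also variable in chimpanzee. It was high in lines 1 and 4, by 2.01 and 1.10, and low in lines 5 and 6, by -1.49 and -1.57. A gene on chromosome 1 from 154319363 to 154376502, with the highest mean r to this group, had 439.6, 101, 65.5, 245, 30.6 and 22.8 CPM, and its chimpanzee levels were 1108 to 2459 CPM. The second group (10 genes, lowest r of a pair 0.56) was high in lines 5 and 6, by 1.11 and 1.42, and low in line 3 by -1.49. The third (9 genes) was low in line 1, by -2.72, and the fourth (8 genes, 5 also variable in chimpanzee) was low in lines 1 and 4 and high in lines 5 and 6.

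**Figure D4:**
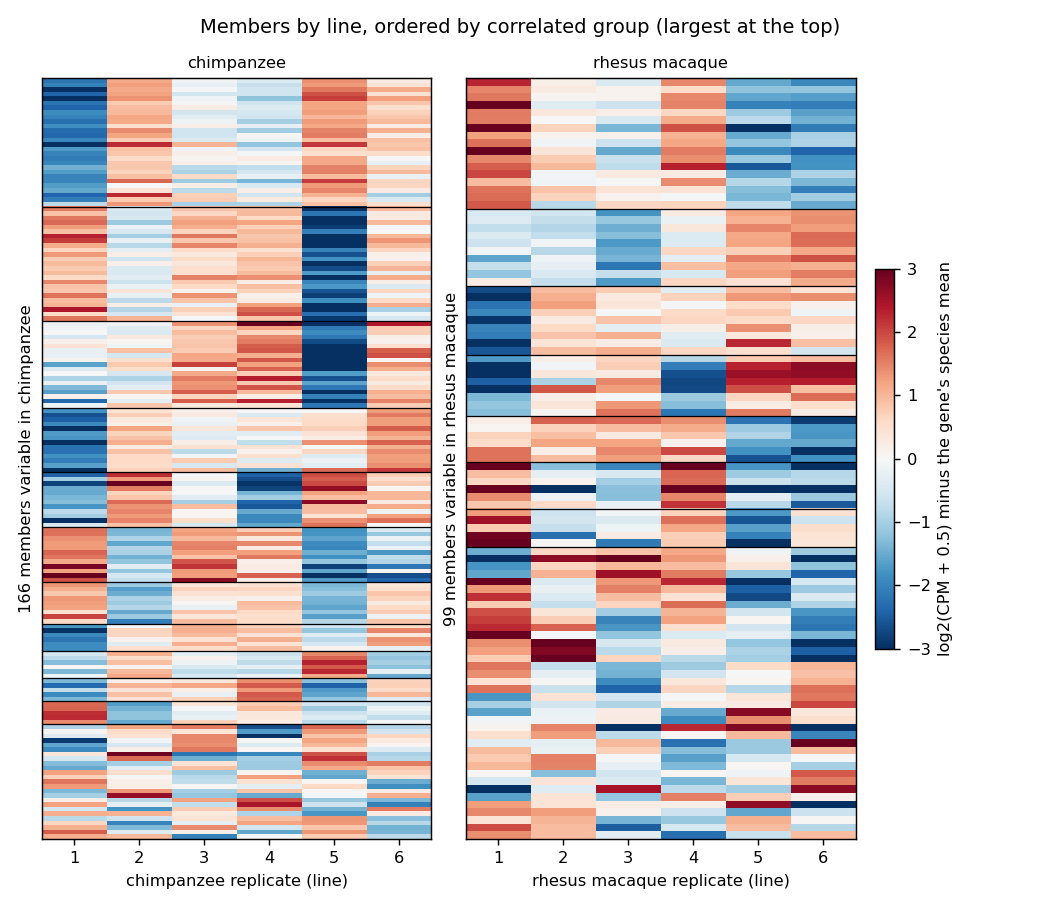
Rows are the 166 genes variable in chimpanzee (left) and the 99 variable in rhesus macaque (right), columns the 6 lines, and colour the log2(CPM + 0.5) minus the gene's mean in that species, capped at 3, with black lines between groups of 5 or more correlated genes. The largest chimpanzee group is low in line 1 (mean -2.17), the next 2 groups are low in line 5, and the largest rhesus macaque group is high in line 1 (mean 2.01).

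Genes that varied together in one species did not, in general, vary together in the other. The chimpanzee pairs at r of at least 0.8 had a median r of 0.05 over the rhesus macaque lines, against 0.03 for all pairs of the same 166 genes. The rhesus macaque pairs had a median r of 0.17 over the chimpanzee lines, against 0.03. Of the 166 genes 124, and of the 99 genes 57, were not variable in the other species. There r rests on smaller differences between lines, and whether this lowered it was not tested. Within the 3 largest chimpanzee groups, whose median r was 0.91, 0.93 and 0.88 in chimpanzee, the same pairs had a median of 0.06, 0.10 and 0.15 in rhesus macaque. For the 3 largest rhesus macaque groups the medians were 0.91, 0.90 and 0.89 at home and 0.19, 0.33 and -0.15 in chimpanzee.

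Among the 42 genes variable in both species, 131 of the 861 pairs reached r of 0.8 in chimpanzee and 94 in rhesus macaque. Only 14 did so in both, which is 10.7% of the first and 14.9% of the second, against 10.9% and 15.2% of all 861 pairs. A further 7 pairs were at -0.8 or below in both species. These were 11.9% of the 59 such pairs in chimpanzee and 11.1% of the 63 in rhesus macaque, against 7.32% and 6.85% of all 861 pairs. Another 9 pairs were beyond 0.8 with opposite signs. The 94 rhesus macaque pairs had a median r of 0.39 over the chimpanzee lines, against 0.18 for all 861, and the 131 chimpanzee pairs one of 0.13 over the rhesus macaque lines, against 0.16. For the pairs that rose and fell together the shares in both species lay near those of all 861 pairs. The pairs described next were named after their values were seen and are given for their values alone. Without any 1 line, 5 of the 14 pairs and 3 of the 7 opposite pairs stayed beyond 0.8 in both species.

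Several of these pairs shared genes. The chromosome 16 gene at 76.4 Mb, a gene on chromosome 1 from 210926383 to 210937030 and a gene on chromosome 8 from 26495402 to 26571607 were linked with r between 0.81 and 0.94 in both species. The chromosome 10 gene at 17.3 Mb was linked to the chromosome 1 gene with r = 0.93 in chimpanzee and 0.82 in rhesus macaque, and to the chromosome 4 gene at 1.151 Mb with 0.87 and 0.81. The chromosome 1 gene had 124, 48.5, 108, 147, 20.5 and 80.4 CPM in chimpanzee, where line 5 was lowest (SD 1.05, and 0.62 without that line). In rhesus macaque it had 107, 51.4, 56.5, 153, 30.9 and 21.96 CPM, where lines 1 and 4 were highest (SD 1.04, and 0.87 without line 4).

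Opposite to the chromosome 16 gene at 76.4 Mb ran the chromosome 5 gene at 138.8 Mb and a gene on chromosome 16 from 87309842 to 87330317 (26 counted exons), which followed each other with r = 0.96 in chimpanzee and 0.91 in rhesus macaque. The latter had 30.0, 371, 109, 105, 601 and 219 CPM in chimpanzee, with line 5 highest, and 34.4, 128, 175, 63.5, 193 and 213 CPM in rhesus macaque, with lines 1 and 4 lowest (SD 1.04, and 0.70 without line 1). Its r to the gene at 76.4 Mb on the same chromosome was -0.94 and -0.92. A further set linked the chromosome 1 gene at 151.8 Mb to genes on chromosome 4 at 1.151 Mb, chromosome 16 at 31.3 Mb and chromosome 19 at 17.97 Mb. The last of these also followed the chromosome 20 gene at 55.7 Mb, with r = 0.95 in chimpanzee and 0.90 in rhesus macaque, and a gene on chromosome 22 at 41.9 Mb, with 0.89 and 0.90. Other pairs joined genes on chromosome 12 at 101.3 Mb and chromosome 14 at 93.5 Mb (0.93 and 0.88) and the chromosome 5 gene to a gene on chromosome 1 at 41.7 Mb (0.82 and 0.80). Opposite pairs away from the chromosome 16 genes joined the chromosome 1 gene at 184.9 Mb to one on chromosome 11 at 61.5 Mb (-0.92 and -0.89) and genes on chromosome 11 at 69.2 Mb and chromosome 14 at 33.5 Mb (-0.91 and -0.84). Another joined a gene on chromosome 14 at 103.1 Mb to the short one at 105.4 Mb (-0.90 and -0.87).

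**Figure D5:**
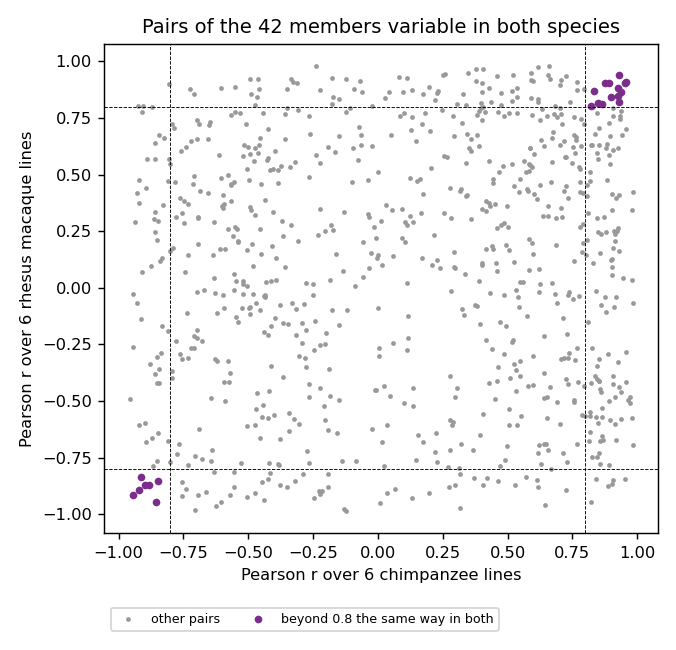
Each point is 1 of the 861 pairs of the 42 genes variable in both species, with Pearson r over 6 chimpanzee lines on the x axis and over 6 rhesus macaque lines on the y axis, and dashed lines at 0.8 and -0.8. The 14 pairs beyond 0.8 in both species and the 7 pairs below -0.8 in both are drawn in purple, and the rest fill the plane.

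There were 33 pairs of variable genes up to 1000 kb apart on a chromosome. Of these, 7 (21.2%) reached r of 0.8 in chimpanzee and 1 (3.03%) in rhesus macaque, against 11.8% and 6.21% of all pairs of the 223 genes. Over 2951 pairs of successive well-expressed genes within the same distance the shares were 13.8% and 8.57%. Among the counted genes 5 of the 33 pairs were adjacent, which is 0.525% of the adjacent pairs of well-expressed genes within that distance. Of the adjacent pairs, the pair on chromosome 17 at 17.6 and 17.7 Mb, 1.92 kb apart, had r = 0.84 in chimpanzee and -0.41 in rhesus macaque. The pair on chromosome 6 at 37.1 and 37.2 Mb had 0.72 and 0.78, and the pair on chromosome 6 at 31.6 and 31.7 Mb had 0.68 and 0.45. On chromosome 1, the pair at 12.05 and 12.17 Mb had -0.01 and 0.37. A single pair overlapped, on chromosome 19 from 55084728 to 55124608 and from 55124272 to 55129003, with r = 0.93 and 0.76. The library steps in the labels mark no strand, so reads from the overlap of these 2 genes cannot be told apart. By chromosome, the share of well-expressed genes that were variable ran from 2.38% on chromosome 13 (1 gene) to 11.6% on chromosome 6 (24 of 207 genes), and was 3.01% on chromosome 19 (8 of 266).

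The difference between the species was tested over all 9440 genes that passed a filter on low counts, and all 223 variable genes passed. By the edgeR quasi-likelihood test with Benjamini-Hochberg adjustment, 57 of the 223 (25.6%) passed an adjusted p of 0.05, 22 of them higher and 35 lower in chimpanzee. Over all tested genes 48.3% passed (24.7% higher and 23.6% lower in chimpanzee), and over the well-expressed genes 40.4%. The spread that chose the genes also enters the error of this test, so the lower share follows in part from the choice and nothing is read from it. The median standard error of the variable genes was 0.49, against 0.23 over the well-expressed genes, and their median absolute log2 difference 0.74, against 0.49. A difference beyond 2-fold that did not pass the test was found for 27 of them. Scaling by library totals without TMM moved the median log2 difference of all tested genes from 0.041 to 0.134 and gave 29 higher and 33 lower.

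By class, of the 42 genes variable in both species, 4 passed (2 in each direction), of the 124 variable in chimpanzee only, 36 (7 higher and 29 lower in chimpanzee), and of the 57 variable in rhesus macaque only, 17 (13 higher and 4 lower). All lines of one species exceeded all lines of the other for 22 of the 223 genes (9.87%), against 26.9% of all tested genes. The SD was part of the choice of the genes and of the classes, so these counts are given as a description only.

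Among the variable genes that passed, the largest difference higher in chimpanzee was that of ENSG00000102962, on chromosome 16 from 55954917 to 55957600. It had 8493, 3074, 1647, 3793, 2905 and 985 CPM in chimpanzee lines 1 to 6 and 28.9, 179, 504, 256, 38.8 and 15.9 CPM in rhesus macaque lines 1 to 6. The lines of the species did not overlap, and the log2 difference was 4.26 ± 0.84 (SE, n = 6 lines each, edgeR adjusted p = 0.000892). It was variable in both species, with an SD of 1.06 in chimpanzee (0.79 without line 1) and 1.98 in rhesus macaque. The next, ENSG00000131378, was the even chimpanzee gene on chromosome 3 described above, with a log2 difference of 3.69 ± 0.70 (SE, edgeR adjusted p = 0.00066). A gene on chromosome 2 from 85475382 to 85482792 followed at 3.41, with 43.0 CPM in chimpanzee line 5 and 434 to 1674 CPM in the other chimpanzee lines, against 30.9 to 152 CPM in rhesus macaque. Line 5 thus fell within the rhesus macaque range, and without it the chimpanzee SD was 0.72 in place of 1.81.

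The largest difference in the other direction was that of ENSG00000105374, on chromosome 19 from 56566686 to 56567772 (2 counted exons). It had 37.7, 48.5, 77.6, 127, 2.41 and 35.6 CPM in chimpanzee and 1430.2, 608, 481, 1527, 350.3 and 518 CPM in rhesus macaque. All chimpanzee lines were below all rhesus macaque lines, and the log2 difference was -4.02 ± 0.67 (SE, edgeR adjusted p = 0.000245). ENSG00000010810, on chromosome 6 from 112089190 to 112208531 (13 counted exons), had 207, 76.3, 184, 141, 11.7 and 83.5 CPM in chimpanzee and 1321 to 1942 CPM in rhesus macaque. Its log2 difference was -3.81 ± 0.49 (SE, edgeR adjusted p = 2.8e-05). Both were variable in chimpanzee only, with line 5 the lowest, and without that line their chimpanzee SD was 0.77 and 0.65. The next were the chromosome 8 gene at 134.1 Mb (-3.72), a gene on chromosome 22 at 34.1 Mb (-3.66) and a gene on chromosome X at 47.3 Mb (-3.46).

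Sex, the one label that divides the lines of a species, gave no called difference in a variable gene by the edgeR quasi-likelihood test. In chimpanzee (3 females and 3 males) 0 of 9440 genes passed an adjusted p of 0.05 (0.0%). The smallest adjusted p among the variable genes was 0.383, and 29 of the 223 (13.0%) had an unadjusted p under 0.05 by edgeR, against 7.02% of all tested genes. DESeq2 called 50 genes (0.53%), 4 of them among the 223. In rhesus macaque (2 females and 4 males) edgeR also called 0 genes (0.0%), 9 of the 223 (4.04%) had an unadjusted p under 0.05 against 2.2% of all tested genes, and DESeq2 called 3 genes (0.0318%), none of them variable. Chimpanzee lines 1 and 5, which stood apart from the others, are both labelled male, so their part in the unadjusted chimpanzee values was not tested.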

How the data were processed

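The authors deposited raw counts per exon for each library and left out exons without a count. Per the labels' protocols, total RNA was converted to cDNA libraries by steps that mark no strand and was read on a Genome Analyzer II. Aligner, counter and genome build were not given in the sources used here. From the deposited counts, exons were summed per gene, with an unlisted exon taken as 0, and CPM used library totals (pandas 2.3.3, numpy 2.4.6). The labels give no batch, and replicate numbers follow accession order. Totals ran from 1434241 to 4751954 counts per library, so 1 count was 0.210 to 0.697 CPM, and floors of 3 counts cover counting error only. The reads carry no molecular identifiers. The p-values set a difference in mean between species or sexes against the spread between lines, which may be partly technical.

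Species and sex were tested on counts with the quasi-likelihood test of edgeR 4.0.16 (limma 3.58.1, R 4.3.3), with TMM scaling, edgeR's default filterByExpr filter (count minimum 10, total minimum 15) and Benjamini-Hochberg adjustment over 9440 genes. Standard errors were derived from the F statistic. Sex used a fit of 4 groups, species by sex. DESeq2 1.42.0 and limma-voom were alternatives.

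Correlations are Pearson's r of log2(CPM + 0.5), and groups are average-linkage clusters of 1 minus r separated at 0.2. The genes described are those with the largest smaller SD over both species, the 10 largest SDs per species, those of highest mean r in the 3 largest groups per species, neighbouring pairs, those nearest the thresholds and the 5 largest species differences per direction, with at most 2 identifiers printed per direction. The genes and lists were chosen with earlier results of these data known. Lists of gene functions and cell type markers need gene names and were not run, and no sequence is printed.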

Additional observations from a re-analysis of the deposited data

Results flagged for a closer look

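For 25 of the gene and species combinations described, and for library totals in chimpanzee, a single line lay apart from the other 5: its gap to the nearest line, as a share of the whole range, exceeded Dixon's 95% critical value for 6 samples. By chance about 1 set of lines in 20 does so, and many of these genes were chosen for a large spread, so the values are given without explanation. The 25 were 14.2% of the 176 combinations examined, and over all well-expressed genes the share was 9.35% in chimpanzee and 4.12% in rhesus macaque.

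Chimpanzee line 5 was the low line for 11 genes. Among those variable in chimpanzee, the gap was 0.649 of the range for the gene on chromosome 6 at 112.1 Mb, 0.631 on chromosome 2 at 85.5 Mb, 0.665 on chromosome 19 at 56.6 Mb and 0.647 on chromosome 14 at 90.8 Mb. It was 0.699 on chromosome 19 at 8.49 Mb, 0.667 on chromosome 4 at 102.9 Mb, 0.663 on chromosome 8 at 134.1 Mb and 0.627 on chromosome 10 at 121.5 Mb. Among genes variable in both species it was 0.683 on chromosome 10 at 17.3 Mb and 0.708 on chromosome 14 at 93.5 Mb. For a gene variable in rhesus macaque only, on chromosome 15 at 77.0 Mb, it was 0.659.

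Chimpanzee line 1 was the low line for 5 genes, with a gap of 0.78 on chromosome 6 at 131.2 Mb, 0.679 on chromosome 22 at 41.9 Mb, 0.646 on chromosome 1 at 41.7 Mb, 0.812 on chromosome 6 at 109.9 Mb and 0.642 on chromosome 21 at 45.1 Mb. It was the high line for 1 gene, on chromosome 11 at 107.6 Mb, with 0.643.

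Rhesus macaque line 1 was the low line for 5 genes. The gap was 0.837 on chromosome 9 at 133.1 Mb and 0.821 on chromosome 17 at 53.8 Mb, both variable in rhesus macaque only. It was 0.661 on chromosome 12 at 101.3 Mb, 0.646 on chromosome 14 at 93.5 Mb and 0.634 on chromosome 6 at 131.2 Mb. The same line was the high one for the chromosome 1 gene that starts at 151773699, with 0.714. Rhesus macaque line 6 was low on chromosome 2 at 102.0 Mb, with 0.665, and line 3 on chromosome 10 at 102.1 Mb, with 0.655. In total counts, chimpanzee line 6 lay above the other 5 libraries of its species with a gap of 0.656 of the range.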

How the results depend on the processing

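The number of variable genes, 223, was 206 to 227 under TMM-scaled libraries, DESeq2 size factors, log2(CPM + 2), libraries thinned to the smallest, and exons counted in at least 3 libraries of each species. It moved with the definition itself, to 474 at 20 CPM, 102 at 100 CPM, 422 at an SD above 0.8 and 79 above 1.5, and fell to 108 (16 in both species) without the exon of most counts, where fewer genes passed the level. Leaving out 1 line at a time gave 186 to 258 variable genes and 31 to 45 in both species, and leaving out chimpanzee lines 1 and 5 together, added after the data were seen, gave 156 and 22. For the shares of pairs that follow, the variable genes were chosen anew in each setting. The share of chimpanzee pairs with r of at least 0.8, 15.83%, was 17.76% to 25.14% without 1 chimpanzee line. It was 25.38% without the most distant line of each species. The rhesus macaque share, 10.78%, was 11.92% to 17.99% without 1 rhesus macaque line, highest without line 3. Without 1 line of the other species these shares were at least 15.66% and 10.28%. An r of 0.8 is commoner over 5 lines among all well-expressed genes too (7.47% to 11.4% and 7.41% to 10.2%). Of 121 SDs above 1 of described genes, 65 fell to 1 or below under at least 1 alternative. By edgeR, males alone gave 2762 genes and 29 variable genes called between species, and leaving out 1 line 4222 to 4801 and 51 to 68. Of 210 settings of the 10 largest species differences, 209 kept their call and direction. The chimpanzee sex test called 50 genes and 4 variable genes with DESeq2, and 0 to 4 and 0 to 1 in edgeR without single lines (4 and 1 without line 1, 3 and 1 without line 2). In rhesus macaque DESeq2 called 3. No paired analysis was possible because the chimpanzee and rhesus macaque lines come from different animals. The smallest library, 1434241 counts, limits levels below 2.09 CPM (3 counts).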
